A study of Mus musculus with 9 samples.

Results

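The 9 genes described here, Tal1, Lyl1, Lmo1, Lmo2, Tlx1, Tlx3, Hhex, Lin28b and Mef2c, are known for being switched on out of place in human T-cell acute lymphoblastic leukaemia. They were taken as a fixed list by symbol, out of 21883 protein-coding genes on the 19 autosomes, X and Y in the RefSeq annotation of GRCm38.p6. Of the 9, 8 had a listed transcription start, as did 17491 of all genes. Lmo2, without a listed start, was read at both ends of its annotated gene and over its body. The chromatin came from thymic T-cell lymphoma driven by MYCN in C57BL/6J mice, and ChIPmentation (chromatin immunoprecipitation with adapters inserted by a transposase) was done with 1 library for each of 7 antibodies. The antibodies were against EZH2, SUZ12, H3K27me3, N-MYC, p300, H3K27ac and H3K4me3, and all 7 libraries share this strain, tissue and cell type, with no untreated or healthy group. By its title the study asks about EZH2 as an activator of genes in peripheral T-cell lymphoma, while the tissue label is thymus. The labels give neither the promoter that drives MYCN nor the animal behind each immunoprecipitation, and the 2 input libraries were not analysed here. Without replicate libraries no p-value is given, and each value describes 1 deposited peak list.

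Several of these genes work together. TAL1 and LYL1 are basic helix-loop-helix factors that bind DNA with E-protein partners. LMO1 and LMO2 are LIM-only proteins that can bridge them to LDB1 and GATA factors, as LMO2 does in blood stem cells and red-cell precursors. TLX1 and TLX3 are homeobox factors of nervous system and spleen development, HHEX is a homeobox factor of early blood, liver and endothelium, LIN28B is an RNA-binding protein that blocks let-7 microRNA maturation, and MEF2C is a MADS-box factor of muscle, brain and B-cell precursors. Several, Tal1, Lyl1, Lmo2, Hhex and Mef2c among them, are on in early progenitors and silenced as thymocytes commit to the T lineage. Polycomb repressive complex 2, which holds EZH2 and SUZ12, deposits H3K27me3 on silent genes, whereas H3K4me3 and H3K27ac mark active promoters and p300 is an acetyltransferase of active elements.

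A gene was called Polycomb-marked where an H3K27me3 peak and an EZH2 or SUZ12 peak each overlapped the same window of 1 kb either side of a start by at least 1 bp. It was called active where H3K4me3 and H3K27ac did so. By these rules 6 of the 8 members with a listed start were Polycomb-marked (Tal1, Lmo1, Tlx1, Tlx3, Hhex and Lin28b), against 14.2% of all protein-coding genes with a listed start. Active marks were called at 2 of the 8, Tal1 and Lyl1, against 48.6% of all genes. Tal1 thus carried both states, a combination found at 3.73% of genes, and Mef2c met neither rule, as did 40.9% of genes. Lmo2 was left out of these counts, and which end of its gene holds a start is not listed. Its lower gene end met the active rule only. Its upper end met the Polycomb rule only, through H3K27me3 and an EZH2 peak of 4.88 without SUZ12. That EZH2 peak lay beyond the gene, in a gap between H3K27me3 peaks, and overlapped none of them. Both states at 1 start were therefore not shown for Lmo2.

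Because Polycomb complexes gather at stretches rich in CpG dinucleotides, the 250 bases upstream of a start are printed for 6 members that differ in CpG content and in state. They run from 5′ to 3′ on the strand of the gene, in RefSeq build GRCm38.p6, with CpG dinucleotides in capitals, and for genes with several starts the most upstream one is shown.
Hhex (chr19:37434591-37434840, plus strand): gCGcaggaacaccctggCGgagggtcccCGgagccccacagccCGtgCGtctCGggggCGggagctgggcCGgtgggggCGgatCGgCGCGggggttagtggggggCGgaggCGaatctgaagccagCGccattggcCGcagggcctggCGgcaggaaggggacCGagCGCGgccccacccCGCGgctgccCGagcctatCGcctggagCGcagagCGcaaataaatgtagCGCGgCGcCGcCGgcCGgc
Lmo1 (chr7:109175208-109175457, minus strand): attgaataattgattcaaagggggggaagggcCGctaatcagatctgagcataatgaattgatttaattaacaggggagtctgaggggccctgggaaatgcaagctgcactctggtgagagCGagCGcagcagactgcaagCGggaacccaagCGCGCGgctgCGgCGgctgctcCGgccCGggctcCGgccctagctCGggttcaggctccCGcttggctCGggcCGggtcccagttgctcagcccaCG
Tal1 (chr4:115056176-115056425, plus strand): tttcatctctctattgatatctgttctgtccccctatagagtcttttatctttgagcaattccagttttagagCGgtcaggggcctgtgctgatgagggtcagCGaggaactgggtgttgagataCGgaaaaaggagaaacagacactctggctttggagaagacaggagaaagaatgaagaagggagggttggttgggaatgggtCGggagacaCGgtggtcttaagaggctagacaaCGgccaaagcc
Lyl1 (chr8:84701207-84701456, plus strand): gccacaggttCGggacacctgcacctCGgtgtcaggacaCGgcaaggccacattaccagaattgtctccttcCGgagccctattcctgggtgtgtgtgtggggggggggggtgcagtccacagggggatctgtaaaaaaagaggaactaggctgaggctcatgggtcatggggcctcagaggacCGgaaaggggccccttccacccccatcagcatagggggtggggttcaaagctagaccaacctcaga
Lin28b (chr10:45470202-45470451, minus strand): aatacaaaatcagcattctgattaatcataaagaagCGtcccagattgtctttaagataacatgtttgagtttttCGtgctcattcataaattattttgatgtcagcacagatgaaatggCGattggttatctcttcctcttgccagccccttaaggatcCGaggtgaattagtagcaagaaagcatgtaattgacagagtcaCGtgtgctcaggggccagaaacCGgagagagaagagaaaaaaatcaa
Mef2c (chr13:83503784-83504033, plus strand): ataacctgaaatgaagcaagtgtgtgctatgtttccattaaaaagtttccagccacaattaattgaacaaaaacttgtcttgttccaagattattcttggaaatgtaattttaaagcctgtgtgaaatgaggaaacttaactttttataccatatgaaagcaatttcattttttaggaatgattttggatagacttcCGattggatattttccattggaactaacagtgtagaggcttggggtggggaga
Counted over 250 bases before and 50 after the start, Hhex held 37 CpG, more than all but 6.47% of 21262 promoters of protein-coding genes, and the 2 Lmo1 starts held 29 and 39. Both genes were Polycomb-marked. The first Tal1 start held 11 CpG and the second 22, Tlx3 held 18 and Tlx1 16. Lyl1 had active marks with only 7 CpG, and the first Mef2c start, where no list had a peak, held 1 CpG. Lin28b was Polycomb-marked with 8 CpG, below the median of 13 over all promoters. Of genes with a CpG-rich promoter (at least 50% G and C and an observed over expected CpG of at least 0.6) 21.2% were Polycomb-marked, 78.9% active, 6.6% both and 6.54% neither. Of the remaining genes 7.72% were Polycomb-marked, 20.3% active, 1.05% both and 73% neither. The letters CACGTG, the core motif bound by MYC factors, occurred in the 300 bases of 1 of the 8 members, Lin28b, with the first letter 49 bases before the start. On either strand, since the motif is its own reverse complement, 7.84% of all promoters held it. Lin28b had no N-MYC peak over its whole gene.

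By single lists, H3K27me3 was called within 1 kb of a start at 7 of the 8 members, all but Lyl1, against 24.3% of genes. EZH2 was called at 7 of 8, all but Mef2c, against 46% of genes, and SUZ12 at 5 of 8 against 12.8%. H3K4me3 was present at 4 of 8 against 52.1%, and H3K27ac at 2 of 8 against 52.2%. p300 was present at Lyl1 alone among the 8, against 40.6% of genes. No member had an N-MYC peak within 1 kb of a listed start, whereas 34% of all genes did. Missing peaks are sites below the threshold of the authors' lists, which does not show that a protein or mark was absent.

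**Figure D1:**
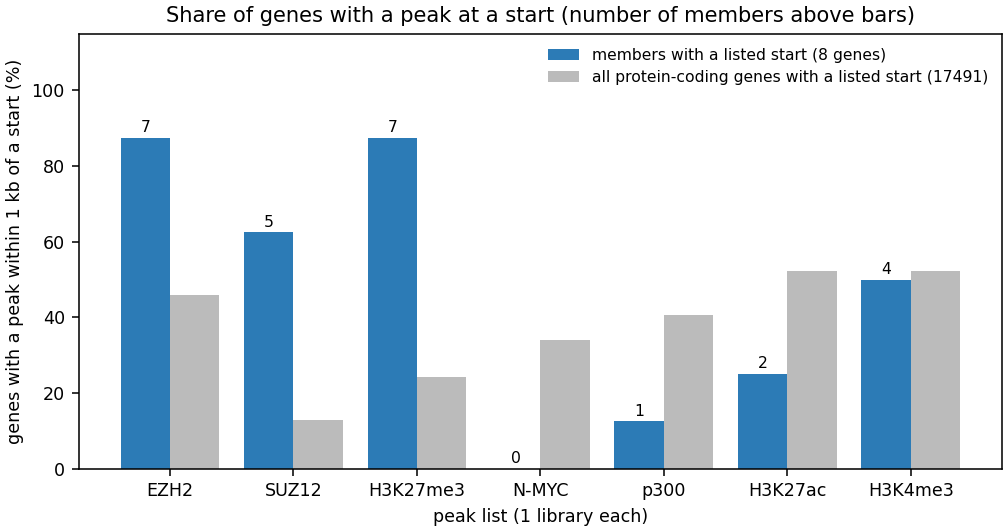
Share of genes with a peak within 1 kb of a listed start, in percent, for each of the 7 peak lists. Blue bars are the 8 members with a listed start (their number stands above each bar) and grey bars are all 17491 protein-coding genes with one; H3K27me3, EZH2 and SUZ12 stand above the grey bars, and the N-MYC bar is at 0.

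**Figure D2:**
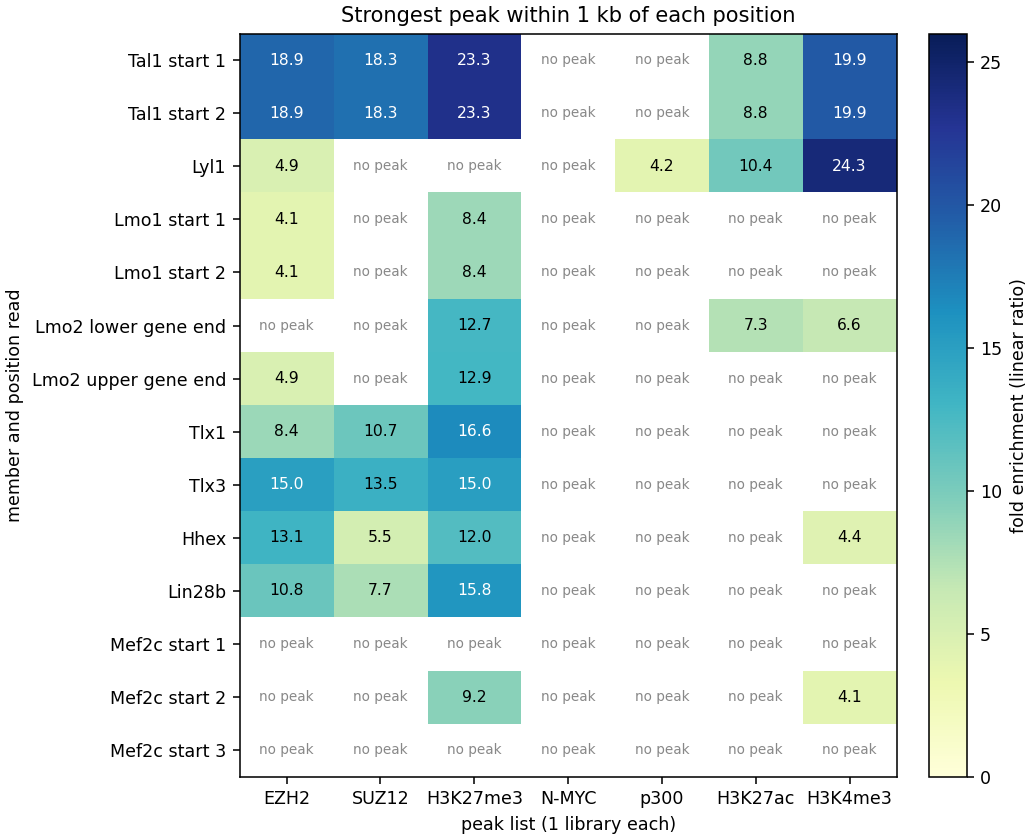
Fold enrichment of the strongest peak within 1 kb of each listed start, or of each gene end for Lmo2, in the 7 lists. Tal1 combines high EZH2, SUZ12 and H3K27me3 values with H3K27ac and H3K4me3, Lyl1 has no H3K27me3 or SUZ12, and the N-MYC column is empty.

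Tal1 (RefSeq gene 21349, chromosome 4 from 115056426 to 115071755, plus strand) had strong Polycomb peaks together with active marks that were weak among active genes. The authors' fold enrichment, a linear ratio of a peak over its background, was 18.9 for EZH2, 18.3 for SUZ12, 23.3 for H3K27me3, 8.81 for H3K27ac and 19.9 for H3K4me3, and the same peaks covered both listed starts. Its SUZ12 peak ranked 11 of 11100 by fold enrichment, its EZH2 peak 42 of 18730 and its H3K27me3 peak 44 of 123056. Among all 2486 Polycomb-marked genes, 0.523% had a stronger SUZ12 peak and 1.37% a stronger EZH2 peak, with medians of 5.71 and 6.17. Among the 8504 active genes, 75.0% had stronger H3K27ac and 75.4% stronger H3K4me3, with medians of 12.9 and 27.5. The H3K4me3 peak was 8396 bp wide and ranked 29 of 16899 by width.

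Both kinds of mark lay on the same stretch of Tal1 rather than side by side. All 8396 bp of H3K4me3 lay inside the H3K27me3 peak of 20827 bp. Over the gene and 5 kb either side, 8655 of 11393 bp of H3K27ac (76.0%) lay inside H3K27me3. Neither N-MYC nor p300 had a peak in the gene. The active call depended on the setting. With lists cut to an equal length of 9798 peaks Tal1 was no longer active, and its H3K27ac peak ranked 10587 by fold enrichment. With the summit required inside the window the call was lost too. The H3K4me3 summit lay 4220 and 2835 bp past the 2 listed starts, outside both windows. In both settings Tal1 stayed Polycomb-marked. An H3K27ac peak of fold enrichment 11.8 and 4524 bp width began 2.56 kb beyond the gene, on the side of Pdzk1ip1, and met none of the other 6 lists. Stil, the gene fused to TAL1 by deletion in human leukaemia, ended 13.2 kb before Tal1 and was active, with EZH2 4.64, N-MYC 3.56, p300 6.14, H3K27ac 10.3 and H3K4me3 20.1.

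Lyl1 (gene 17095, chromosome 8 from 84701423 to 84704716, plus strand), the close relative of Tal1, had active marks without Polycomb marks at its start. H3K27ac reached 10.4 and H3K4me3 24.3, and both peaks covered 100% of the gene. Among 8504 active genes 65.8% had stronger H3K27ac and 61.4% stronger H3K4me3, so these levels were below the middle of active genes. EZH2 had 2 peaks within 1 kb of the start (3.89 and 4.88), and p300 had 3, each at or below 4.15. N-MYC had 1 peak in the gene (4.82), with its summit 2424 bp past the start, outside the window. Peaks of p300, H3K27ac and H3K4me3 overlapped it, as did the edge of an EZH2 peak. EZH2 without H3K27me3 was not particular to Lyl1: of all active genes 74.6% had an EZH2 peak at a start and 9.74% an H3K27me3 peak.

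Directly behind Lyl1 the marks changed. From 3270 bp past the start, at the end of the gene, lay a SUZ12 peak of 2850 bp (fold enrichment 8.08). H3K27me3 peaks of 8.95 and 11.4 and EZH2 peaks of 6.59 and 7.06 reached over the same stretch, inside Nfix, whose annotated gene overlaps the end of Lyl1. The H3K4me3 peak of Lyl1 ran 1142 bp into these H3K27me3 peaks. A window of 5 kb therefore counted Lyl1 as Polycomb-marked as well.

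Lmo2 (gene 16909, chromosome 2 from 103957903 to 103981878) lay in the longest H3K27me3 domain of the 9 genes. H3K27me3 peaks within 3 kb of each other joined into 88.9 kb, rank 81 of 24143 such domains, and covered 95.1% of the gene. The domain also held 4931422A03Rik, an active gene 10.6 kb away. At the lower gene end H3K27me3 (12.7), H3K27ac (7.34) and H3K4me3 (6.57) were called without EZH2 or SUZ12, and at the upper end H3K27me3 (12.9) and EZH2 (4.88). Each value was that of the strongest peak reaching within 1 kb of the end. These H3K27me3 summits lay at -9144 bp from the lower end, outside the gene, and at -3599 bp from the upper end, inside it. The H3K27me3 peak with its summit 102 bp past the upper end reached only 3.94. The strongest peaks lay inside the gene. EZH2 reached 16.1, SUZ12 10.4 and H3K4me3 20.8 there, and the EZH2 and H3K4me3 summits both fell 12327 bp from the lower end. H3K27ac at this place was 6.68.

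As at Tal1, active and repressive marks overlapped along Lmo2. Over the gene and 5 kb either side, 99.5% of the 10286 bp under H3K27ac and 97.8% of the 8387 bp under H3K4me3 lay inside H3K27me3. H3K27ac peaks away from listed starts were also counted around Lmo2. Its own starts are not listed, so only its gene ends could be left out, and no count over all genes was made. Within 100 kb of the gene and more than 1 kb from any listed start, 57 H3K27ac peaks were called, 5 of them inside Lmo2. Of the 57 peaks, 37 overlapped H3K27me3 and none overlapped p300 or N-MYC. Their median fold enrichment was 3.86, and the highest, 9.90, lay 59.3 kb below the gene. The long noncoding gene Gm38515 overlaps Lmo2, and these peaks cannot be assigned to Lmo2 over other genes nearby.

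**Figure D3:**
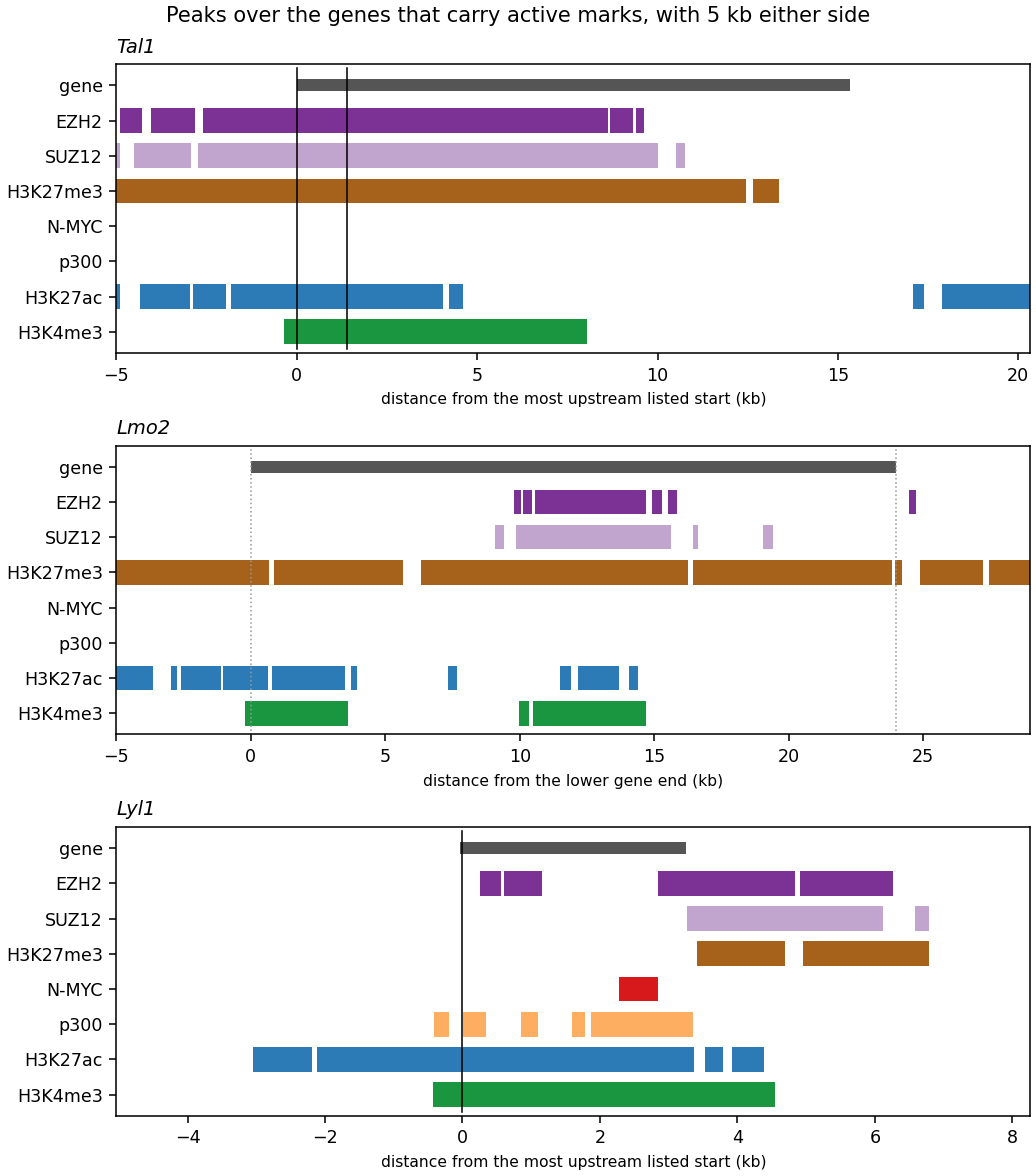
Peaks of the 7 lists (coloured bars) over Tal1, Lmo2 and Lyl1 with 5 kb either side, by distance in kb along the gene; the grey bar is the annotated gene, solid lines are listed starts and dotted lines the gene ends of Lmo2. H3K4me3 lies within H3K27me3 at Tal1 and nearly so at Lmo2, and at Lyl1 SUZ12 and H3K27me3 peaks begin past the end of the gene while EZH2 also has peaks inside it.

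Lmo1 (gene 109594, chromosome 7 from 109138565 to 109175207, minus strand) had the weakest Polycomb state of the 6 marked members. The 2 listed starts, 58 bp apart, shared an EZH2 peak of 390 bp (fold enrichment 4.12) and an H3K27me3 peak of 6430 bp (8.39). Of the Polycomb-marked genes 80.8% had stronger EZH2 and 79.6% stronger H3K27me3. SUZ12 was called at 2 sites in the gene (3.62 and 3.38), the nearer with its summit 1210 bp past the upstream start, just outside the window. Its call ended with lists of equal length, and when SUZ12 was required. H3K27me3 covered 18.5% of the gene, with a stronger peak of 12.7 about 6 kb inside it, and no active list had a peak in the gene.

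Tlx1 (gene 21908, chromosome 19 from 45150092 to 45156943, plus strand) and Tlx3 (gene 27140, chromosome 11 from 33200752 to 33203588, minus strand) were each covered over their whole length by EZH2, SUZ12 and H3K27me3. At Tlx1 the fold enrichments were 8.44, 10.7 and 16.6, and at Tlx3 15.0, 13.5 and 15.0. At Tlx1 the SUZ12 value was exceeded by 8.81% of Polycomb-marked genes, the H3K27me3 value by 19.7% and the EZH2 value by 23.6%. Its peaks were also broad: the SUZ12 peak of 24912 bp ranked 16 of 11100 by width and the H3K27me3 peak of 37343 bp ranked 31 of 123056. At Tlx3 the EZH2 value was exceeded by 3.18% of Polycomb-marked genes. The stitched H3K27me3 domains measured 57.2 kb at Tlx1 and 53.8 kb at Tlx3, against a median of 2.92 kb over all domains. That median takes in domains as short as 0.2 kb, whether or not they reach a start. Domains at the other Polycomb-marked genes were not measured. No active list had a peak in Tlx1 or Tlx3. Because the peaks are wide, their summits lay up to 11313 bp (Tlx1) and 1984 bp (Tlx3) from the start, and neither gene was called when the summit had to lie in the window.

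The genes around the 2 homeobox members differed. Ranbp17, which lies 8.21 kb from Tlx3 and in which breakpoints of human TLX3 rearrangements fall, was Polycomb-marked (EZH2 4.12, SUZ12 3.95, H3K27me3 11.0) with H3K4me3 4.07. Npm1, 36.6 kb away on the other side, was active when read at its gene ends. For Tlx1 the neighbours were Kazald1, with both states, and Lbx1, Polycomb-marked at its gene ends.

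Hhex (gene 15242, chromosome 19 from 37434841 to 37440731, plus strand) combined Polycomb marks with a weak H3K4me3 peak and no H3K27ac. EZH2 was 13.1, SUZ12 5.48 and H3K27me3 12.0, with H3K4me3 at 4.38, and 81.3% of the H3K4me3 list was stronger. The EZH2 value was exceeded by 6.23% of Polycomb-marked genes and the SUZ12 value by 48.4%. EZH2, SUZ12 and H3K4me3 summits lay 83, 220 and 126 bp past the start. H3K27me3 covered 92.1% of the gene. Both flanking genes, Kif11 and Exoc6, were active, and the domain of 19.7 kb held no other protein-coding gene.

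Lin28b (gene 380669, chromosome 10 from 45376617 to 45486314, minus strand) was marked at its listed start with EZH2 10.8, SUZ12 7.74 and H3K27me3 15.8. In addition the upstream end of the annotated gene carried a separate block, with EZH2 5.08, SUZ12 6.82 and H3K27me3 14.7, whose EZH2 summit lay at -15982 bp relative to the listed start, upstream of it. No start was listed there. In all, 34 H3K27me3 peaks, those of both blocks included, covered 23.2% of the gene, against 5.97% for EZH2. No active list had a peak in the 109698 bp of the gene.

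Mef2c (gene 17260, chromosome 13 from 83504017 to 83667079, plus strand) was nearly bare. Of its 3 listed starts the 2 at 83504034 and 83573607 had no peak in the 7 lists. The start at 83523656 had H3K27me3 (9.24) with a weak H3K4me3 peak (4.07), without EZH2 or SUZ12. Neither EZH2 nor SUZ12 had a peak in the 163063 bp of the gene, and H3K27me3 covered 3.92% of it. Within 100 kb no H3K27ac, p300 or N-MYC peak was called. Polycomb peaks did lie beyond the far end of the gene: 9 EZH2 peaks more than 1 kb from a start, from 45.7 kb to 78.6 kb past it and as strong as 7.87, all overlapped H3K27me3.

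**Figure D4:**
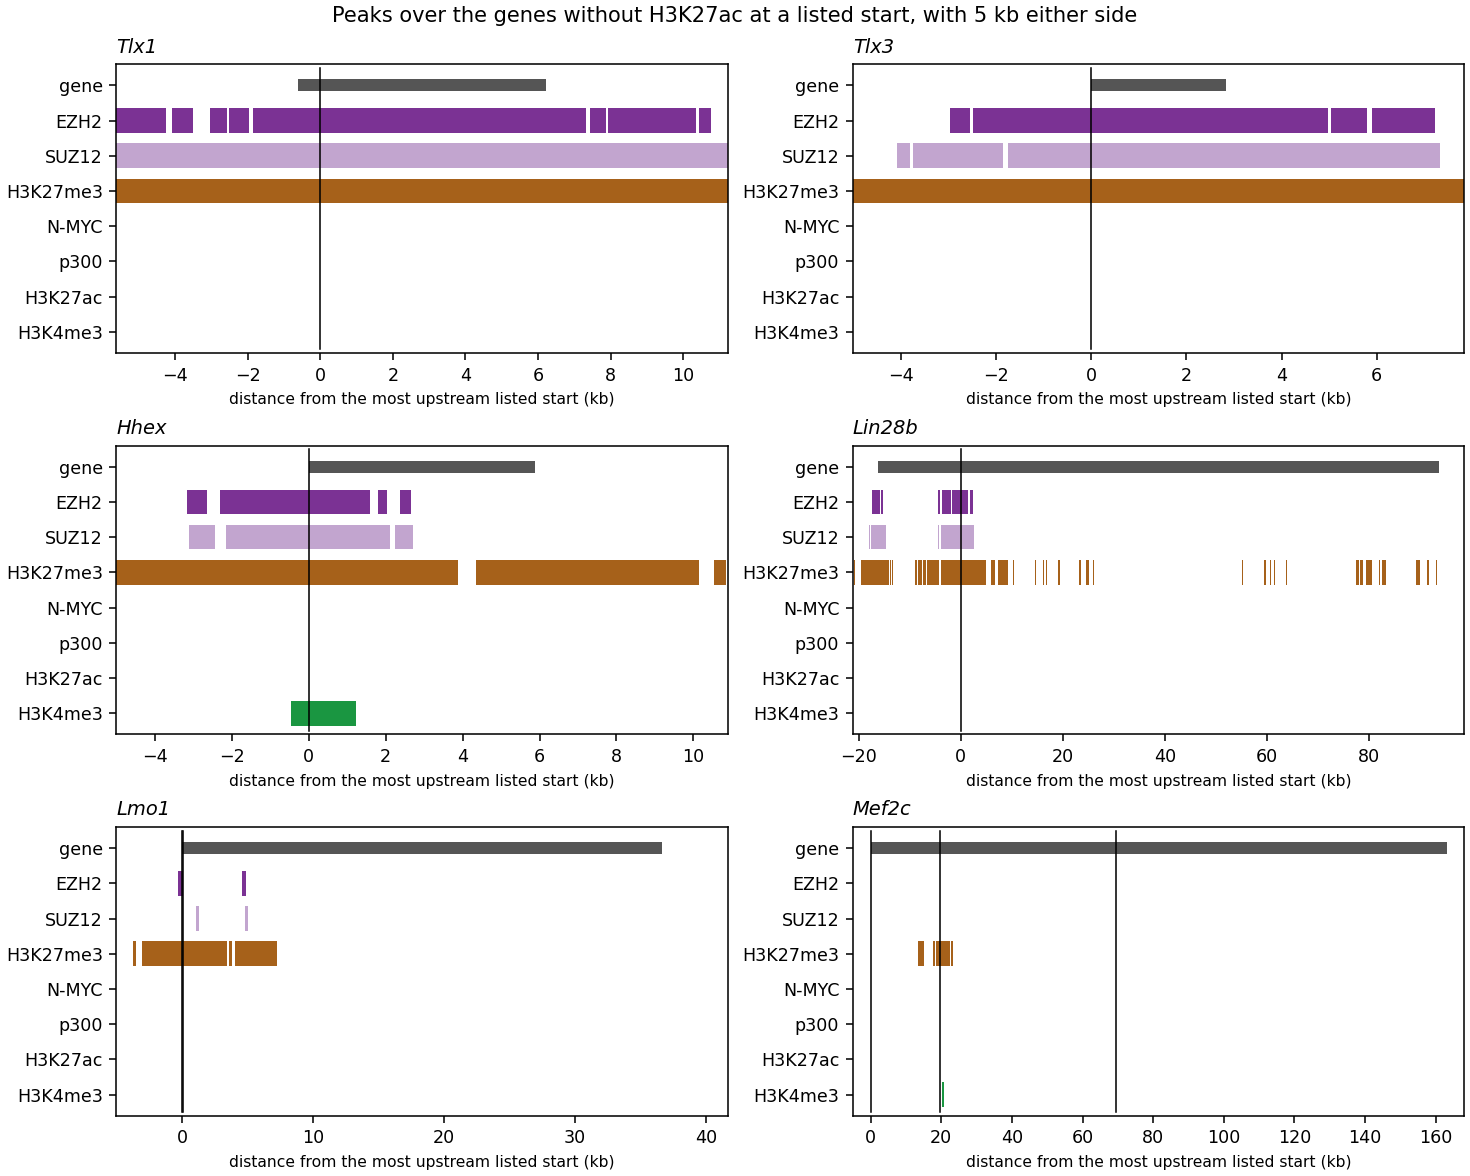
Peaks of the 7 lists over Tlx1, Tlx3, Hhex, Lin28b, Lmo1 and Mef2c with 5 kb either side, by distance in kb from the most upstream listed start, drawn as in the map of Tal1, Lmo2 and Lyl1. Tlx1 and Tlx3 are covered throughout by EZH2, SUZ12 and H3K27me3, Hhex and Mef2c have small H3K4me3 peaks, and no panel shows N-MYC, p300 or H3K27ac.

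Over gene bodies the 9 members had a median H3K27me3 coverage of 85.8% of the gene, against 0% over all 21883 protein-coding genes, of which 30.1% had a peak in the body. For EZH2 the median was 36.1% against 0%. For H3K27ac it was 0% against 2.23%, and 3 of the 9 had such a peak in the body (Tal1, Lyl1 and Lmo2) against 57.9% of genes. The short genes Tlx1, Tlx3 and Lyl1 are covered whole by single peaks, so coverage also reflects gene length. The H3K27me3 domains stitched at 3 kb ranged from 9.70 kb at Mef2c to 88.9 kb at Lmo2, and Lyl1 had none.

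**Figure D5:**
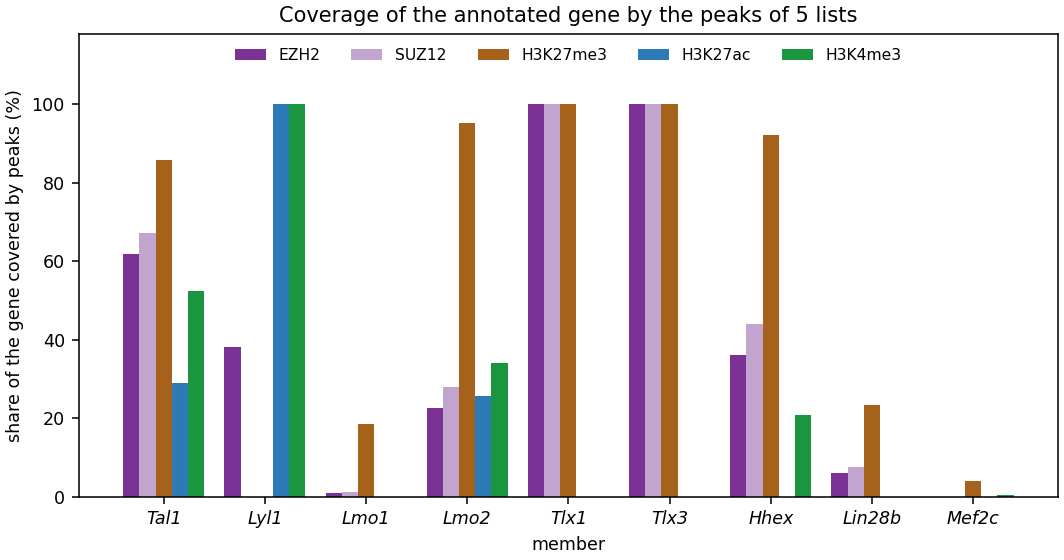
Percent of each annotated gene covered by peaks of EZH2, SUZ12, H3K27me3, H3K27ac and H3K4me3; N-MYC and p300, which had peaks in Lyl1 alone among the 9, are not drawn. H3K27me3 covers 85.8% or more of Tal1, Lmo2, Tlx1, Tlx3 and Hhex and none of Lyl1.

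The DNA-binding and bridging partners of TAL1, LYL1 and the LMO proteins had mostly active starts. Of 13 partner genes with a listed start, 10 were active (Tcf3, Tcf12, Ldb1, Gata1, Runx1, Cbfb, Ssbp2, Ssbp3, Ssbp4 and Cbfa2t3), Gata3 and Lmo4 had both states, and Gata2 was Polycomb-marked (EZH2 12.3, SUZ12 11.3, H3K27me3 22.4). With both states included 92.3% were active, against 48.6% of all genes with a listed start. H3K27me3 at Gata3 was 4.04, below the median of 4.20 of that list, beside H3K4me3 48.9. Read at gene ends, Tcf4 was active and Ldb2 had neither state. The E-protein gene Tcf12 carried H3K27ac 29.5, H3K4me3 46.4 and N-MYC 8.01, and Ldb1 carried 15.3, 27.1 and 5.92. Among 12 other genes known to be switched on in T-cell leukaemia and with a listed start, 10 were Polycomb-marked, against 14.2% of all genes. These were Tal2, Nkx2-1, Nkx2-2, Nkx2-5, Hoxa9, Hoxa10, Hoxa11, Olig2, Bhlhe23 and Lin28a. Myb alone of the 12 was active (H3K27ac 24.1, H3K4me3 44.9, N-MYC 6.70), and Lmo3 had neither state. Read at gene ends, Bhlhe22 and Tlx2 were Polycomb-marked and Spi1 had neither state. In the list of early T-cell precursor and stem-cell genes, 7 of 10 with a listed start were Polycomb-marked and not active. These were Cd34, Flt3, Meis1, Erg, Mycn, Id2 and Cebpa. Bcl2 was active, Gfi1b had both states and Kit neither. The 14.2% over all genes includes genes with both states. At their gene ends Fli1 was Polycomb-marked and Nfe2 active.

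The labelled cell type was checked with markers. All 8 T-cell markers with a listed start were active, 7 without Polycomb marks and Bcl11b with both states. The Polycomb call of Bcl11b rested on EZH2 (10.8) and an H3K27me3 peak of 3.58, below the median of 4.20 of that list, without SUZ12. Over the 8 markers H3K4me3 values ran from 15.7 at Themis to 41.8 at Bcl11b, and H3K27ac values from 14.3 to 30.2. Of all genes with a listed start 48.6% were active. None of 4 endothelial markers (Tek, Kdr, Tie1 and Emcn) was active. Among the rest, 1 of 3 B-cell markers, 1 of 5 myeloid markers and 1 of 5 epithelial and stromal markers were active. Of 5 erythroid and megakaryocyte markers, 3 were active (60.0%, against 48.6% of all genes). They were Gata1 (H3K27ac 5.48, H3K4me3 12.1), Klf1 (13.6 and 19.8) and Epor (6.22 and 19.1). Itga2b had H3K27ac alone and Pf4 no peak. Tal1, Lyl1 and Lmo2, the members with active marks, are also expressed by erythroid cells. The part of such cells in their marks was not tested, and marks on different cells or alleles cannot be told apart in these lists.

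For each member with peaks in at least 3 lists at a start, the most similar genes were sought by Euclidean distance over the 7 values of log2(1 + strongest fold enrichment). Tal1 had the least common pattern, with 1 gene closer than a distance of 1, Zeb2 (0.97), followed by Dennd5a (1.11). For Hhex 70 genes lay that close, led by Fndc3b (0.46) and Tcea3 (0.49). The other patterns had more such genes, though each count is a small part of the 17491 genes with a listed start. Within that distance lay 699 genes for Lyl1 (nearest Dcaf5 and Zyx) and 640 for Lin28b (Bmper and Meis1). For Tlx1 there were 590 (Fnbp1l and Ephb2) and for Tlx3 266 (Slc30a3 and Lhx2).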

How the data were processed

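The 7 peak lists hold 282301 peaks. Per the submitters' processing notes, FastQC, Bowtie2, SAMtools, MACS2 and deepTools were used with builds mm10 and GRCm38; versions, settings, the control used and any pooling are not given in the sources used here. The fold enrichment (a linear ratio) and, as −log10, the q-value and p-value were taken as deposited by the authors; a whole-number score, also deposited, entered no result. The smallest −log10 q was 2.00 to 2.08 per list. Read depth is unknown.

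Starts came from the RefSeq promoter table of GRCm38.p6. Of the H3K4me3 summits 50.0% lay within 1 kb of a listed start, and 3.46 or 3.58% when starts were shifted by 20000 bp either way. Peaks were intersected with Python 3.11.15, pandas 2.3.3 and numpy 2.4.6, and the steps were tested on simulated data. The members and gene lists were chosen with earlier results of these data known. Named were all members, the genes of the fixed lists and the 2 most similar genes per member. Of the fixed markers, 1 is not reported here. Counts were repeated with other windows, thresholds, list lengths, overlap rules, starts and definitions.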

Additional observations from a re-analysis of the deposited data

How the results depend on the processing

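Of 58 alternative counts for the 6 counts of members at starts, 38 equalled the reported count, 10 stayed within 1.5 times of it and 10 did not. The number of Polycomb-marked members ran from 4, with the summit required in the window (8.38% of all genes), to 7. The 7 came with a window of 5 kb (18.0% of all genes), with H3K27me3 alone (24.3%) and with Lmo2 added at its gene ends. The number with EZH2 ran from 5, with the summit in the window (44.4% of all genes), to 7 of the 8 members. It was 8 only with Lmo2 added as a further gene. A window of 5 kb either side gave 2 members with both states (7.48% of all genes) and 1 with N-MYC (36.4%), Lyl1 in each case being the added gene. Lists of equal length (9798 peaks each) gave 1 active member (34.7% of all genes), 0 with both states (0.572%) and 2 with neither (53.8%). With the summit required in the window, 1 was active (45.8% of all genes), 0 had both states (2.08%) and 3 had neither (47.9%). In both settings the shares over all genes moved the same way as the members' counts. An H3K4me3 peak alone as the mark of activity gave 4 active members (52.1% of all genes), Hhex and Mef2c being added. Counting Lmo2 at its gene ends, an alternative chosen after seeing the data, gave 2 members with both states. At Lmo2 the 2 states came from different ends. Stitching H3K27me3 peaks at 5 kb moved the median domain length of the 7 members with a listed start and a domain from 19.7 to 21.8 kb. No paired analysis was possible because each antibody had 1 library. With 1 library per antibody and unknown depth, a missing peak cannot be given an upper limit.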

Other observations

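Genes linked to LIN28B and to MEF2C were read in the same way as the members. Of 8 genes of the LIN28B and let-7 axis with a listed start, 4 were active (Hmga1, Igf2bp3, Dicer1 and Tut7), Hmga2 and Igf2bp2 were Polycomb-marked, and Tut4 and Trim71 had both states. With both states included 75.0% were active, and Hmga2, Igf2bp2, Tut4 and Trim71 were Polycomb-marked. At their gene ends Igf2bp1 was Polycomb-marked (EZH2 21.8, SUZ12 13.4, H3K27me3 14.6) and Arid3a active (H3K27ac 13.7, H3K4me3 33.0). Over all genes with a listed start 48.6% were active and 14.2% Polycomb-marked, each share including the 3.73% with both. Hmga1, a chromatin protein gene, carried N-MYC 11.0, H3K27ac 21.5 and H3K4me3 41.2, whereas its relative Hmga2 carried EZH2 14.8, SUZ12 11.5 and H3K27me3 13.7 with H3K4me3 13.2. Trim71 combined EZH2 19.6, SUZ12 14.3 and H3K27me3 12.4 with N-MYC 6.17, H3K27ac 10.4 and H3K4me3 13.1.

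Unlike Mef2c, the family members Mef2a and Mef2d were active, with N-MYC 5.60 and 13.7, and Mef2b had no peak at its start. The class IIa deacetylase genes Hdac4, Hdac5 and Hdac7 were active and Hdac9 had no peak. Around Hhex and Lin28b, 7 and 4 H3K27ac peaks away from starts were called within 100 kb, all outside the genes. By the same count Tlx1 had 7, Lmo1 6, Tlx3 1 and Mef2c 0, whereas Tal1 had 17, Lyl1 30 and Lmo2 57. No such count was made over all genes. The nearest of the 4 to Lin28b began 93.3 kb from it.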
